A study of Arabidopsis thaliana with 12 samples.

Results

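The loss of the chromatin remodeler BRM was read where the Polycomb methyltransferase CLF was already missing, by setting seedlings of the genotype brm-1 clf-29 against clf-29 seedlings. The comparison used 6 of the 12 arrays of the study, 3 biological replicates per genotype, taken by the genotype in the sample titles. Col, the wild type of the Columbia ecotype, and brm-1 supplied the other 6 arrays, which served to follow each change of clf-29 in plants with and without BRM. All plants were whole seedlings of 14 days grown at 22 °C with 16 h of light and 8 h of dark, and their total RNA was hybridized to Affymetrix ATH1 arrays. brm-1 is a null allele carrying a T-DNA insertion in BRM, clf-29 is a T-DNA insertion in CLF, and both compared genotypes carry clf-29, so that BRM is the gene by which they differ. In RNA of whole seedlings, fewer cells of a type and less RNA per cell cannot be told apart.

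BRM is the ATPase of a SWI/SNF complex, which uses the energy of ATP to slide or evict nucleosomes and so opens DNA to transcription factors. CLF is a catalytic subunit of Polycomb Repressive Complex 2, which places the repressive mark H3K27me3 on histone H3. In Arabidopsis the mark keeps flowering and floral organ genes silent in seedlings, and loss of CLF lets several of them be transcribed in leaves. SWI/SNF and Polycomb proteins were first known from flies as opposing regulators of developmental genes. The comparisons address which genes lost or gained transcript with loss of BRM when CLF was already missing, and which of the changes of clf-29 were also found without BRM.

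Values are log2 MAS5 signals, differences are in log2 units with the standard error (SE) of the limma fit, and a gene was called at an adjusted p under 0.05. A signal under 4.71, the 95th percentile of bacterial control probe sets, was taken as background. Replicate 3 of each genotype stood apart from the others, so a fit with a term for replicate 3 was set beside the plain fit. The probe sets of BRM and CLF had no single gene name in the table used, and the genotypes could therefore not be tested against the mutated genes. Of the tissue markers, 4 leaf photosynthesis genes (LHCB4.1, LHCB4.2, LHCB4.3 and RCA) had log2 summed levels of 15.96 to 16.04 in clf-29 and 15.92 to 16.13 in brm-1 clf-29. Of 3 stomatal lineage markers the range was 7.43 to 8.24 against 7.50 to 8.26. Of 15 root markers 3 were measured, and they summed to 14.03 to 14.33 in clf-29 and to 13.76 to 13.94 in brm-1 clf-29. These ranges did not overlap, but none of the 3 genes was called and their directions were mixed. EXPA7 differed by -0.17, EXPA18 by 0.13 and PYK10 by -0.38. The part of root tissue in the results was not tested. The 3' over 5' difference of the actin control, a measure of RNA integrity, lay between 1.47 and 1.64 in clf-29 and between 1.49 and 1.59 in brm-1 clf-29.

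Loss of BRM in clf-29 lowered more genes than it raised. Among 13356 genes, 131 were lower in brm-1 clf-29 (0.981% of those tested) and 65 were higher (0.487%). With the term for replicate 3, 356 were lower (2.67%) and 249 higher (1.86%), and these included all 131 and all 65 of the plain fit. With the replicate number as a block 324 were lower (2.43%) and 219 higher (1.64%), and within replicates 1 and 2 alone 368 were lower (2.76%) and 210 higher (1.57%). The excess of lower genes was kept by quantile normalization (121 lower, 0.906%, and 63 higher, 0.472%) but not by centring. Centring the arrays on their medians, which moved the median over all genes from -0.01 to 0.053, gave 107 lower (0.801%) and 103 higher (0.771%), and centring with the term for replicate 3 gave 291 lower (2.18%) and 415 higher (3.11%). The arrays of the 2 genotypes did not overlap at any of the 196 called genes, against 16.0% of all genes. The 196 calls fell to 64 without replicate 2 of clf-29, to 117 without its replicate 1, to 63 without replicate 1 of brm-1 clf-29 and to 99 without its replicate 2, and the Col arrays, which enter through the shared spread, lowered them to 119 (replicate 1) and 106 (replicate 2). Without the replicate 3 arrays of the compared genotypes 179 and 168 were called.

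The gene for the flowering regulator AGL24, a MADS-box transcription factor that promotes the floral transition, fell. Its signal was 7.91, 8.52 and 7.95 in clf-29 and 6.82, 6.66 and 6.58 in brm-1 clf-29. Every array without BRM was thus below every clf-29 array, by 1.44 ± 0.20 (SE; adjusted p = 0.00427), and the call held with each array left out. AGL24 also had the lowest levels of the 4 genotypes in brm-1 (5.28, 5.19 and 5.34), beside 7.37, 7.37 and 7.57 in Col. Loss of CLF raised it by 1.42 ± 0.20 where BRM was absent (adjusted p = 0.0138) and by 0.69 ± 0.20 where it was present, which did not pass (adjusted p = 0.168). These 2 CLF differences were not shown to differ (0.73, 95% interval 0.10 to 1.35; adjusted p = 0.862). Of 31 listed flowering time genes 6 were measured, and SVP, the flowering repressor gene central to the study, was not among them, nor were FT and FLC. Of the 6, AGL24 was the single one called in either fit (0.981% of all genes were lower, 2.67% with the term). The median of the 6 was -0.05 beside -0.01 over all genes. The floral repressors SMZ and SNZ differed by -0.47 ± 0.28 and 0.00 ± 0.39, the clock and flowering gene GI by -0.09 ± 0.12, the bZIP factor FD by 0.84 ± 0.37 and the MADS-box gene AGL19 by 1.12 ± 0.55. The arrays of FD and of AGL19 did not overlap (AGL19 at 6.02, 4.90 and 5.68 in clf-29 and 6.60, 6.91 and 6.45 in brm-1 clf-29). The same held for 16.0% of all genes, and neither gene passed the test (adjusted p = 0.359 and 0.422).

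The largest fall among the genes chosen by rule was in DFR, which encodes dihydroflavonol 4-reductase of anthocyanin synthesis. Its signal was 7.14, 7.38 and 7.58 in clf-29 and 4.52, 3.5 and 4.06 in brm-1 clf-29. All 3 arrays without BRM were at background, so that DFR was at least 6.31-fold lower (adjusted p = 0.0309; 0.00436 with the replicate 3 term). In Col it was read at 5.43, 5.25 and 6.69 and in brm-1 at 5.41, 3.2 and 6.27, so the highest levels of the 4 genotypes were those of clf-29. The call of DFR was lost with any array of the 2 genotypes left out (highest adjusted p over all alternatives 0.12).

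CHIL, a chalcone isomerase-like gene whose protein enhances flavonoid production, was the other flavonoid gene called in the plain fit. It was at 9.33, 9.27 and 8.47 in clf-29 and at 7.41, 8.20 and 7.29 in brm-1 clf-29, a fall of 1.39 ± 0.30 (adjusted p = 0.0384; 0.000374 with the term). Replicate 3 was the lowest of both genotypes, and the call was lost with 4 of the 6 arrays left out in turn. Of 10 measured flavonoid and anthocyanin genes 9 had a negative difference (51.4% of all genes did). In the plain fit 2 were called lower (0.981% of all genes) and with the term 3 (2.67% of all genes). The third was AT1G06000 (-0.79 ± 0.23, adjusted p = 0.0161 with the term). The median of the list was -1.09, against -0.01 over all genes. All 10 were higher in clf-29 than in Col (49.4% of all genes were), with a median of 0.65 and none called. The fall was thus measured from raised clf-29 levels, and the 2 comparisons share the clf-29 arrays. In brm-1 against Col 6 were negative (54.2% of all genes were) and 4 positive, with a median of -0.29. Members that did not pass included UF3GT, a flavonoid glucosyltransferase gene (-2.01 ± 0.72), AT4G14090 (-1.62 ± 0.62), the anthocyanidin reductase gene BAN (-1.70 ± 0.77) and the flavonol glycosyltransferase genes UGT78D1 (0.38 ± 0.26) and UGT78D2 (-0.02 ± 0.27). All 3 BAN arrays of brm-1 clf-29 lay at background, as did 2 of the 3 of clf-29.

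UGT84A3, which a gene annotation listed by the study gives as a possible glucosyltransferase gene of sinapate, gave one of the steadiest falls. It was at 9.35, 9.44 and 9.39 in clf-29 and at 7.23, 7.22 and 7.27 in brm-1 clf-29. The difference was -2.15 ± 0.19 (adjusted p = 0.000164), and its call was kept under every alternative. Its order across genotypes was clf-29, Col (7.93, 8.31 and 8.39), brm-1 clf-29 and brm-1 (6.29, 6.89 and 6.13), with no overlap between neighbours. Loss of CLF raised UGT84A3 by 1.18 ± 0.19 with BRM (adjusted p = 0.0118), while the difference of 0.80 ± 0.19 without BRM did not pass (adjusted p = 0.142; 0.044 with the term). Of 5 measured phenylpropanoid and sinapate genes UGT84A3 was the single one called (0.981% of all genes were lower, 2.67% with the term). The median of the 5 was -0.18, and UGT84A1, UGT84A4, ALDH2C4 and HCT differed by 0.43 ± 0.65, -0.56 ± 0.30, -0.18 ± 0.21 and 0.08 ± 0.12.

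**Figure D1:**
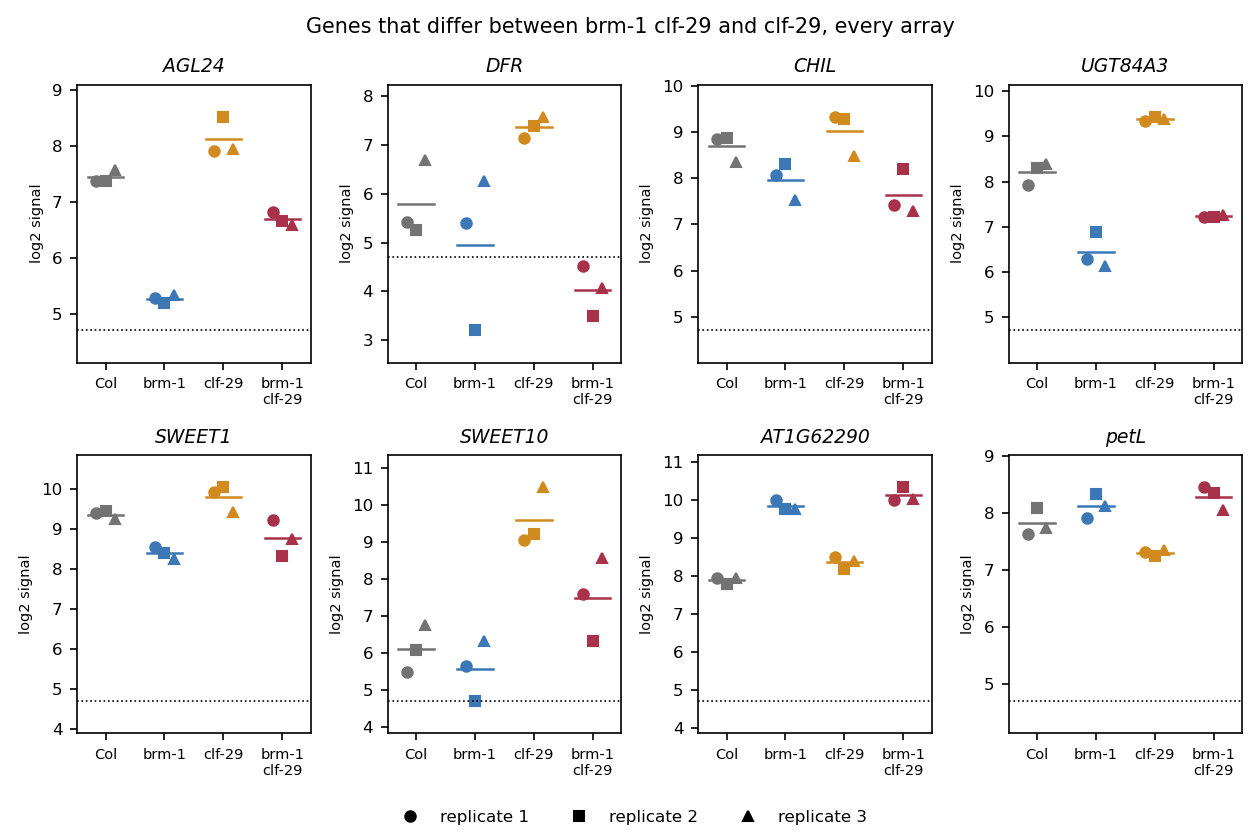
Log2 signal of 8 genes in every array of the 4 genotypes. Symbols give the replicate number, the horizontal bars the mean of 3 arrays and the dotted line the background of 4.71. The brm-1 clf-29 arrays lie below all clf-29 arrays in the first 6 panels and above them in AT1G62290 and petL.

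Sugar transporter genes, among them the SWEET family, whose proteins carry sugars across the plasma membrane and the vacuole membrane, were followed as a list of 15 measured genes. SWEET1 fell by 1.03 ± 0.21 (adjusted p = 0.0317), from 9.93, 10.06 and 9.44 in clf-29 to 9.23, 8.34 and 8.76 in brm-1 clf-29. It was the single one of the 15 called in the plain fit, and its call was lost with 4 of the 6 arrays left out. With the term for replicate 3, SWEET1, SWEET2, SWEET10 and SWEET11 were called lower and SAG29, a senescence-associated member, was called higher. SWEET10 was at 9.07, 9.23 and 10.49 in clf-29 and at 7.59, 6.33 and 8.57 in brm-1 clf-29. The replicate 3 arrays were the highest of each genotype, and the difference of -2.10 ± 0.58 had an adjusted p of 0.119 in the plain fit and of 0.00191 with the term. SAG29 went the other way, from 8.58, 8.28 and 7.27 to 10.41, 10.11 and 8.90 (1.76 ± 0.41; adjusted p = 0.0558, and 0.0116 with the term). Of the 15 members 11 had a negative difference, beside 51.4% of all genes, and their median was -0.35, beside -0.01. The plain call of 1 lower member stands against 0.981% of all genes and the 4 under the term against 2.67%.

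Genes of the cell wall and of secreted proteins were among the called falls. They were picked here by their symbols after their values were seen. GH9B13 and GH9B8 are of the glycosyl hydrolase 9 family, which holds the endoglucanases that cut cellulose-like glucans. GH9B13 was at 9.38, 9.38 and 9.97 in clf-29 and at 8.07, 8.43 and 7.90 in brm-1 clf-29 (-1.44 ± 0.17; adjusted p = 0.00115). GH9B8 was at 8.38, 8.71 and 8.84 and at 7.47, 7.50 and 7.95 (-1.0 ± 0.16; adjusted p = 0.00891), and its levels in brm-1 (7.92, 8.07 and 7.97) were close to those of Col (8.17, 8.06 and 8.05). The expansin gene EXPA15, whose family loosens cell walls, fell by 0.80 ± 0.12 (adjusted p = 0.00659). Of 14 measured expansin and xyloglucan enzyme genes EXPA15 was the single one called in the plain fit (0.981% of all genes were lower). Under the term EXPB3 was called beside it (-0.82 ± 0.21, adjusted p = 0.0116), where 2.67% of all genes were lower. The median of the 14 was 0.02. EXPA20, an expansin gene outside that list, was called higher (0.99 ± 0.22; adjusted p = 0.0497), a call lost with each of the 6 arrays left out. The subtilisin-type protease genes SBT4.12 and SBT3.5 fell by 1.1 ± 0.16 and 1.42 ± 0.29 (adjusted p = 0.00427 and 0.0317), and the SKU5-similar gene sks15 by 1.68 ± 0.28 (adjusted p = 0.0121). The calls of SBT3.5 and sks15 were lost with 5 and 3 of the 6 arrays left out, that of GH9B8 with 2, and those of GH9B13 and SBT4.12 with none.

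Of the jacalin-related lectin genes, which encode sugar-binding proteins, 2 were picked from the called falls. JAL22 was at 11.30, 11.52 and 11.01 in clf-29 and at 10.07, 9.99 and 9.68 in brm-1 clf-29, a difference of -1.36 ± 0.21 (adjusted p = 0.00765), and JAL33 fell by 1.11 ± 0.15 (adjusted p = 0.00406). ECS1, on the list of defence genes, was at 13.18, 12.67 and 13.03 in clf-29 and at 11.82, 12.03 and 11.06 in brm-1 clf-29, lower by 1.32 ± 0.22 (adjusted p = 0.0117). LPR2, a multicopper oxidase-type gene of the phosphate starvation response of roots, fell by 0.81 ± 0.09 (adjusted p = 0.000642), and PMEAMT, a methyltransferase gene of phosphocholine synthesis, by 1.01 ± 0.13 (adjusted p = 0.00225). JAL22, JAL33, LPR2 and PMEAMT were named after their values were seen, like the pair of genes that follows. The aldehyde dehydrogenase genes moved in opposite directions: ALDH7B4 fell by 0.90 ± 0.13 and ALDH3F1 rose by 0.94 ± 0.11 (adjusted p = 0.00461 and 0.00107).

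The 15 largest falls were taken among called genes whose higher genotype mean lay above the median signal, a rule that favours genes high in clf-29, and 10 of them also had a mean over all 12 arrays above it. Of the 15, 13 were in genes that the tables used here name by locus only. AT4G28940 was at 8.16, 8.50 and 8.34 in clf-29 and at 6.21, 6.34 and 6.42 in brm-1 clf-29 (-2.01 ± 0.18; adjusted p = 0.000164). AT1G22690 was at 11.72, 11.49 and 11.34 and at 9.39, 9.53 and 9.66 (-1.99 ± 0.18; adjusted p = 0.000199), and AT3G19430 at 7.51, 8.23 and 8.02 and at 5.65, 5.29 and 6.02 (-2.27 ± 0.26; adjusted p = 0.000857). These 3 genes were called under every alternative that held them, as were AT3G04010 (-2.08 ± 0.29), AT5G10130 (-2.03 ± 0.27), AT5G57910 (-1.99 ± 0.22) and AT5G60530 (-1.94 ± 0.20). The fit without genes under the median held 10 of the 15. The others were AT1G50060 (-2.30 ± 0.40), AT1G54740 (-2.05 ± 0.46), AT1G64590 (-1.94 ± 0.40), AT2G15220 (-1.70 ± 0.33), AT5G54370 (-1.70 ± 0.27) and AT2G03550 (-1.69 ± 0.35). Each of these lost its call with 1 or more arrays left out. AT1G54740, of unknown function and followed by qPCR in the study, was at 9.25, 9.06 and 8.23 in clf-29 and at 6.99, 6.83 and 6.57 in brm-1 clf-29, and its adjusted p went from 0.0477 to 9.82e-05 with the replicate 3 term.

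The largest rise taken by the same rule was in AT3G05730. It was at 10.68, 9.77 and 9.53 in clf-29 and at 12.39, 12.17 and 12.37 in brm-1 clf-29, a gain of 2.32 ± 0.22 (adjusted p = 0.000216). AT1G62290 was at 8.50, 8.19 and 8.39 in clf-29 and at 9.99, 10.34 and 10.03 without BRM (1.76 ± 0.13; adjusted p = 4.44e-05). In Col AT1G62290 was at 7.94, 7.78 and 7.94, below clf-29, whereas AT3G05730 was at 12.45, 12.46 and 12.46, far above clf-29. PRX25 (AT2G41480), a class III peroxidase gene, rose by 1.28 ± 0.13 (adjusted p = 0.000217), from 7.95, 7.95 and 7.97 to 9.34, 9.16 and 9.20. The transcription factor gene bZIP18 (AT2G40620) rose by 1.25 ± 0.12 (adjusted p = 0.000216) and the beta-glucosidase gene BGLU33 by 1.19 ± 0.17 (adjusted p = 0.00427). PUB22, a U-box ubiquitin ligase gene that dampens immune signalling, rose by 1.1 ± 0.23 (adjusted p = 0.0351), a call lost with 5 of the 6 arrays left out. The remaining 9 of the 15 largest rises, AT2G43590, AT3G16670, AT1G52700, AT5G55620, AT1G75900, AT3G22550, AT1G76380, AT5G05180 and P1R1, lay between 1.12 ± 0.21 and 1.93 ± 0.30. Of these, AT1G52700 lost its call with each of the 6 arrays left out, P1R1 with 4, AT3G16670 with 3, and AT5G55620 and AT3G22550 with 2.

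Transcripts encoded in the plastid genome had mostly positive differences, of which few were called. The medians of 69 such genes in the 3 arrays were 10.75, 10.92 and 10.67 in clf-29 and 11.57, 11.48 and 11.18 in brm-1 clf-29, and those of Col were 11.04, 11.05 and 10.64. Of the 69 genes 66 had a positive difference (48.4% of all genes did), with a median of 0.38 (-0.01 over all genes), and 5 were called higher (0.487% of all genes) and none lower in the plain fit: the NADH dehydrogenase-like subunit gene ndhK, the cytochrome b6f subunit gene petL, the photosystem II gene psbT and the ribosomal protein genes rpl33 and rps15. With the replicate 3 term 18 were called higher (1.86% of all genes) and none lower. petL was at 7.32, 7.25 and 7.36 in clf-29 and at 8.46, 8.36 and 8.06 in brm-1 clf-29 (0.98 ± 0.17; adjusted p = 0.0129). ndhK rose by 0.76 ± 0.11 (adjusted p = 0.00574) and was the one of the 5 called under every alternative, petL losing its call with 3 and the others with 5 or 6 of the 6 arrays left out. The median of the 69 was 0.42 in replicates 1 and 2 and 0.34 in replicate 3, and it was 0.22 for brm-1 against Col. The nuclear photosynthesis genes did not share it, with a median of -0.01 over the 4 measured, none of them called. Nuclear genes of metabolism that were called higher, picked after their values were seen, included THIC of thiamine synthesis (0.62 ± 0.13), ADCL of folate synthesis (0.67 ± 0.12) and PyrD (0.71 ± 0.14), with calls lost with 5, 2 and 5 of the 6 arrays left out.

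The study's ChIP-seq gave a list of genes with more H3K27me3 in brm-1 than in Col, thus in plants with CLF. Of 97 measured members of 258, 68 had a negative and 29 a positive difference, with a median of -0.30, where 51.4% of all genes were negative with a median of -0.01. In the plain fit 6 were called lower (0.981% of all genes) and none higher: AGL24, UGT84A3, AT1G54740, AT2G03550, AT1G22430 (-1.56 ± 0.31; adjusted p = 0.0306, a call lost with 3 of the 6 arrays left out) and AT3G01860 (-1.17 ± 0.17; adjusted p = 0.00491). With the term 14 were called lower (2.67% of all genes) and none higher. Members whose gained mark depends on CLF (49 measured) had a median of -0.31 and the 48 others of -0.21, with 2 and 4 called lower. The median of the whole list was -0.42 in replicates 1 and 2 and -0.16 in replicate 3. Of 6 measured genes that lose the mark there none was called (median -0.02). Subunit genes of the SWI/SNF complexes themselves (CHR23, SWI3A, CHB3, AT3G01890, CHC1 and BSH) were not called either, and lay between -0.28 and 0.10. Of 12 auxin genes none was called in either fit, with a median of 0.16 and a range of -2.16 to 2.41.

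**Figure D2:**
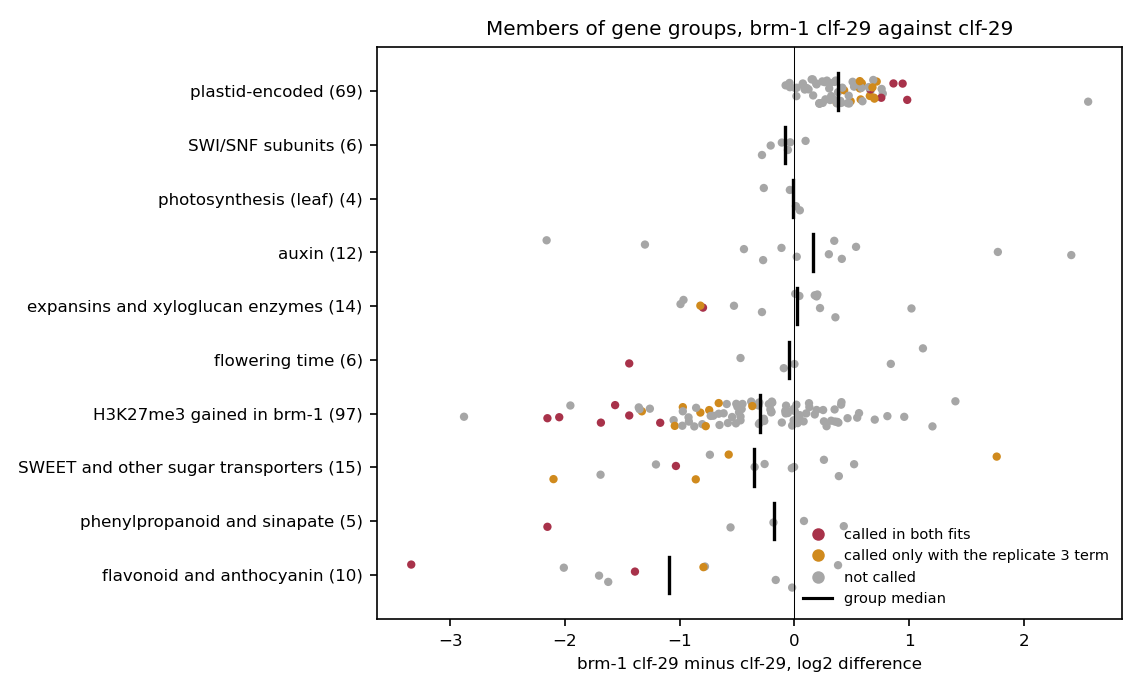
Log2 difference of brm-1 clf-29 minus clf-29 for the measured members of 10 gene groups (number in parentheses). Red points were called in the plain fit and with the term for replicate 3, orange points only with the term, and the black bars are the medians, 0.38 for the plastid-encoded genes and -1.09 for the flavonoid genes.

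The second question was which changes of clf-29 were still found without BRM. In clf-29 against Col, 73 genes were called higher (0.547% of those tested) and 53 lower (0.397%). Each was followed in brm-1 clf-29 against brm-1, which shares no array with the first comparison but shares its estimate of the spread. In that comparison 21 genes were called higher (0.157%) and 8 lower (0.0599%) in all. Of the 73 higher genes 17 were called again in the same direction, 23 more kept at least 0.5 times their difference without a call, and 33 fell short of that. Of the 53 lower genes 2 were called again, 14 more kept at least 0.5 times their difference and 37 fell short. None was called in the opposite direction. The sign was the same for 71 of the 73 and 48 of the 53, and the median ratio of the second difference to the first was 0.54 for the higher genes and 0.37 for the lower ones.

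A gene chosen by its call tends to show an enlarged difference in the arrays that chose it, so these ratios are low in part by construction. Chosen the other way round, by a call in brm-1 clf-29 against brm-1, 17 of 21 higher genes and 2 of 8 lower ones were called in clf-29 against Col, with median ratios of 0.83 and 0.49. The choice was also made from replicates 1 and 2 alone, and the changes were read in replicate 3, which it did not use. The 422 genes called higher in clf-29 of replicates 1 and 2 (3.16% of those tested) had a median difference of 0.34 in replicate 3 with BRM and of 0.10 without it, and the sign was kept by 77.7% and 61.1% of them. For the 313 lower genes (2.34%) the medians were -0.34 and -0.14, and the sign was kept by 79.9% and 57.5%. Genes chosen by the comparison without BRM gave no such gap. The 169 called higher there in replicates 1 and 2 (1.27%) had medians of 0.42 with BRM and 0.43 without it in replicate 3, and the 190 lower ones (1.42%) had -0.35 and -0.28. Whether the changes were smaller without BRM thus rested on which comparison chose the genes, and these readings, from 1 array per genotype, have no test. With the replicate 3 term over all arrays, 72 of 303 higher (2.27% of those tested) and 60 of 283 lower genes (2.12%) were called again, where 0.891% and 1.0% of all genes were called higher and lower in brm-1 clf-29 against brm-1. With the replicate block 64 of 243 (1.82%) and 51 of 222 (1.66%) were called again, with 0.779% and 0.876% of all genes.

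**Figure D3:**
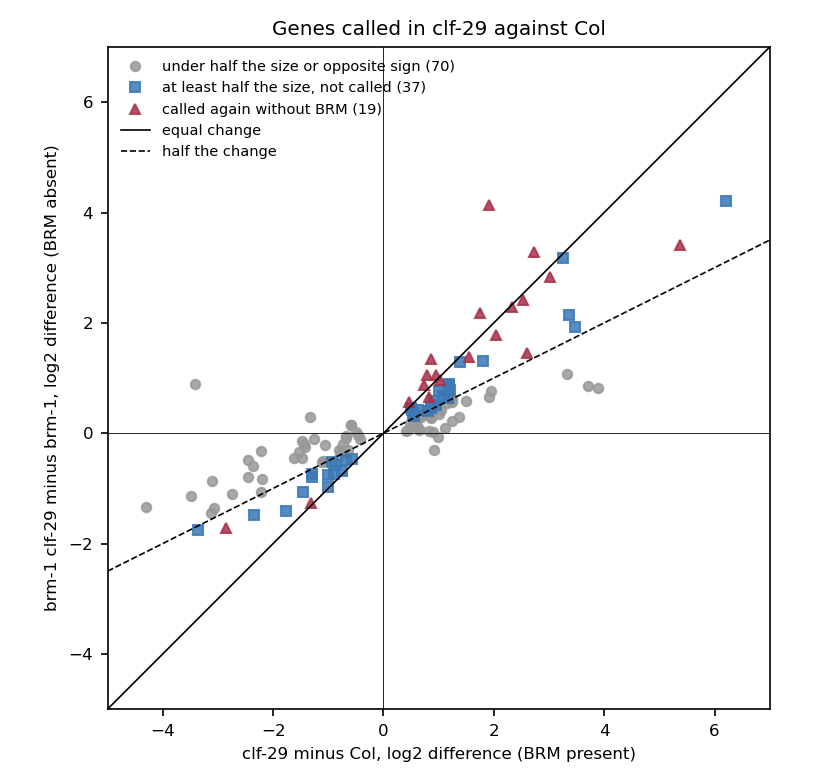
Log2 difference of clf-29 minus Col (horizontal axis) against brm-1 clf-29 minus brm-1 (vertical axis) for the 126 genes called in the first. Triangles mark the 19 genes called again in the same direction, squares the 37 with at least 0.5 times the difference and no call, and grey points the 70 below that; most points lie between the line of equal change and the horizontal axis.

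In the plain fit 17 of the 19 changes called again were gains. The split was nearer even with the term (72 gains and 60 losses), with the replicate block (64 and 51) and in replicates 1 and 2 (110 and 94). AT5G11360 was at background in Col (2.53, 2.35 and 2.19) and at 6.91, 7.49 and 8.81 in clf-29, at least 8.15-fold higher (adjusted p = 0.000839). Without BRM it went from 4.55, 3.74 and 5.42 in brm-1 to 8.37, 7.0 and 8.60 (3.42 ± 0.57; adjusted p = 0.0387). Its clf-29 and brm-1 clf-29 arrays overlapped, and 1 of the 3 brm-1 arrays was above background.

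AT2G20870 had nearly the same gain in both backgrounds. It went from 6.23, 5.82 and 6.37 in Col to 9.27, 9.50 and 8.72 in clf-29 (3.02 ± 0.32; adjusted p = 0.000839), and from 6.46, 6.15 and 5.82 in brm-1 to 8.24, 9.58 and 9.10 in brm-1 clf-29 (2.83 ± 0.32; adjusted p = 0.00382). The difference between the gains was -0.19 (95% interval -1.17 to 0.78). ALC, the bHLH gene ALCATRAZ needed for opening of the fruit, behaved alike in these seedlings: it gained 2.04 ± 0.27 with BRM (adjusted p = 0.00318) and 1.77 ± 0.27 without it (adjusted p = 0.0188), a difference between gains of -0.26 (95% interval -1.08 to 0.55). Its arrays read 6.65, 6.65 and 6.54 in Col, 6.99, 7.01 and 6.52 in brm-1, 8.96, 8.71 and 8.28 in clf-29, and 8.73, 9.12 and 7.99 in brm-1 clf-29. The first 2 genotypes and the last 2 thus formed separate levels.

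The other genes of this class named by rule were AT5G39220 (2.72 ± 0.40 with BRM and 3.29 ± 0.40 without), AT3G28500 (2.60 ± 0.20 and 1.46 ± 0.20), AT3G19550 (2.53 ± 0.31 and 2.41 ± 0.31) and AT5G22430 (2.32 ± 0.38 and 2.28 ± 0.38). AT5G52760 was the one of the 8 that fell, by 2.85 ± 0.30 with BRM and by 1.72 ± 0.30 without (adjusted p = 0.0439). With each of the 12 arrays left out in turn, the call without BRM was lost 10 times for AT5G52760, 9 times for AT5G22430 and 8 times for AT5G11360 (highest adjusted p 0.146). It was lost 5 times for ALC, 2 times for AT3G28500 and 1 time for AT3G19550. For AT2G20870 and AT5G39220 it was never lost (highest adjusted p 0.019 and 0.0435). ECS1 was the other of the 2 lower genes called again, by 1.31 ± 0.22 and 1.26 ± 0.22. Further genes called again, named after their values were seen, were SLY1, which encodes the F-box protein of gibberellin signalling (0.47 ± 0.10 and 0.57 ± 0.10), and the serine carboxypeptidase-like gene SCPL43 (1.75 ± 0.32 and 2.17 ± 0.32). AT3G04960 gained 1.91 ± 0.38 with BRM and was at least 4.03-fold higher without it: its clf-29 and brm-1 clf-29 arrays overlapped (6.50, 6.64 and 6.85 beside 6.51, 6.62 and 7.03). Its brm-1 arrays (2.83, 2.96 and 1.94) were at background and its Col arrays (4.73, 5.0 and 4.54) near it. UGT84A1, which was at background in all Col arrays and at 5.81, 5.49 and 4.43 in clf-29 (at least 1.45-fold higher; adjusted p = 0.0398), was at background in brm-1 too and at 5.26, 5.73 and 6.03 in brm-1 clf-29 (at least 1.95-fold higher; adjusted p = 0.08, and 0.0308 with the term). SWEET10 kept more than 0.5 times its gain without a call in the plain fit: it gained 3.47 ± 0.58 in clf-29 (adjusted p = 0.0142) and 1.93 ± 0.58 without BRM (adjusted p = 0.257; 0.00713 with the term), from 5.50, 6.10 and 6.77 in Col and from 5.65, 4.72 and 6.32 in brm-1. AT5G56240, on the list of gained H3K27me3, was called higher in clf-29 with BRM (0.79 ± 0.13) and without it (1.06 ± 0.13).

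The changes that measured under 0.5 times their size without BRM took more than 1 form. None of their interactions was called in the plain fit. In AT3G05730 and AT3G16670 the fall in clf-29 came with little difference of brm-1 from Col. AT3G05730 fell from 12.45, 12.46 and 12.46 in Col to 10.68, 9.77 and 9.53 in clf-29 (2.46 ± 0.22; adjusted p = 0.000272). Without BRM it was at 12.73, 12.92 and 12.72 in brm-1 and 12.39, 12.17 and 12.37 in brm-1 clf-29 (-0.48 ± 0.22; adjusted p = 0.511). AT3G16670 fell by 2.75 ± 0.33 in clf-29 (adjusted p = 0.00209), from 11.09, 11.31 and 11.50 to 9.37, 8.57 and 7.70, and differed by -1.1 ± 0.33 without BRM (adjusted p = 0.261), from 11.39, 11.69 and 11.15 to 10.76, 10.18 and 9.98. In both genes the brm-1 clf-29 arrays were above all clf-29 arrays.

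In other genes brm-1 was itself below Col. AT3G48640 was at 9.65, 10.25 and 8.75 in Col, at 5.97, 6.31 and 6.74 in brm-1, at 6.0, 6.65 and 5.56 in clf-29 and at 5.12, 5.07 and 5.41 in brm-1 clf-29. Loss of CLF lowered it by 3.48 ± 0.37 with BRM (adjusted p = 0.000851), and the difference without BRM was -1.14 ± 0.37 (adjusted p = 0.313). AT1G57630 (-4.30 ± 0.87 with BRM and -1.34 ± 0.87 without), AT5G55450 (-3.13 ± 0.51 and -1.44 ± 0.51), AT5G03350 (-3.08 ± 0.37 and -1.36 ± 0.37) and AT1G10340 (-2.46 ± 0.23 and -0.79 ± 0.23) also had every Col array above those of the other 3 genotypes. For these 5 genes brm-1 minus Col was -3.21 ± 0.37, -3.83 ± 0.87, -2.03 ± 0.51, -2.03 ± 0.37 and -1.69 ± 0.23, and all but AT5G55450 were called lower in brm-1 (adjusted p = 0.0752 for AT5G55450). AT1G57630 was at background in 2 of the 3 brm-1 clf-29 arrays, in 1 of clf-29 and in 1 of brm-1, and its call in clf-29 was lost with 8 of the 12 arrays left out, that of AT5G55450 with 4.

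AT1G09500 was the one rise among the 8 genes of this class named by rule. It rose by 3.33 ± 0.64 in clf-29 (adjusted p = 0.0317), from 5.26, 5.61 and 4.96 in Col to 9.14, 9.73 and 6.95, and differed by 1.07 ± 0.64 without BRM (6.94, 6.94 and 5.50 in brm-1 and 7.27, 8.41 and 6.92 in brm-1 clf-29). Replicate 3 was the lowest of each genotype, and the call in clf-29 was lost with 6 of the 12 arrays left out. UFO, the F-box gene that helps specify petals and stamens, was at background in all Col arrays and at 5.41, 4.74 and 5.52 in clf-29, at least 1.43-fold higher (adjusted p = 0.043). In brm-1 clf-29 it was at 3.11, 4.76 and 4.58 and in brm-1 at 2.95, 2.45 and 4.47 (adjusted p = 0.781). A single brm-1 clf-29 array was above background, and it overlapped the clf-29 arrays, which lay near the background themselves. The difference of brm-1 clf-29 from clf-29 was -1.07 (adjusted p = 0.629), and the interaction did not pass (adjusted p = 0.862). Whether UFO depends on BRM in clf-29 was thus not shown.

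**Figure D4:**
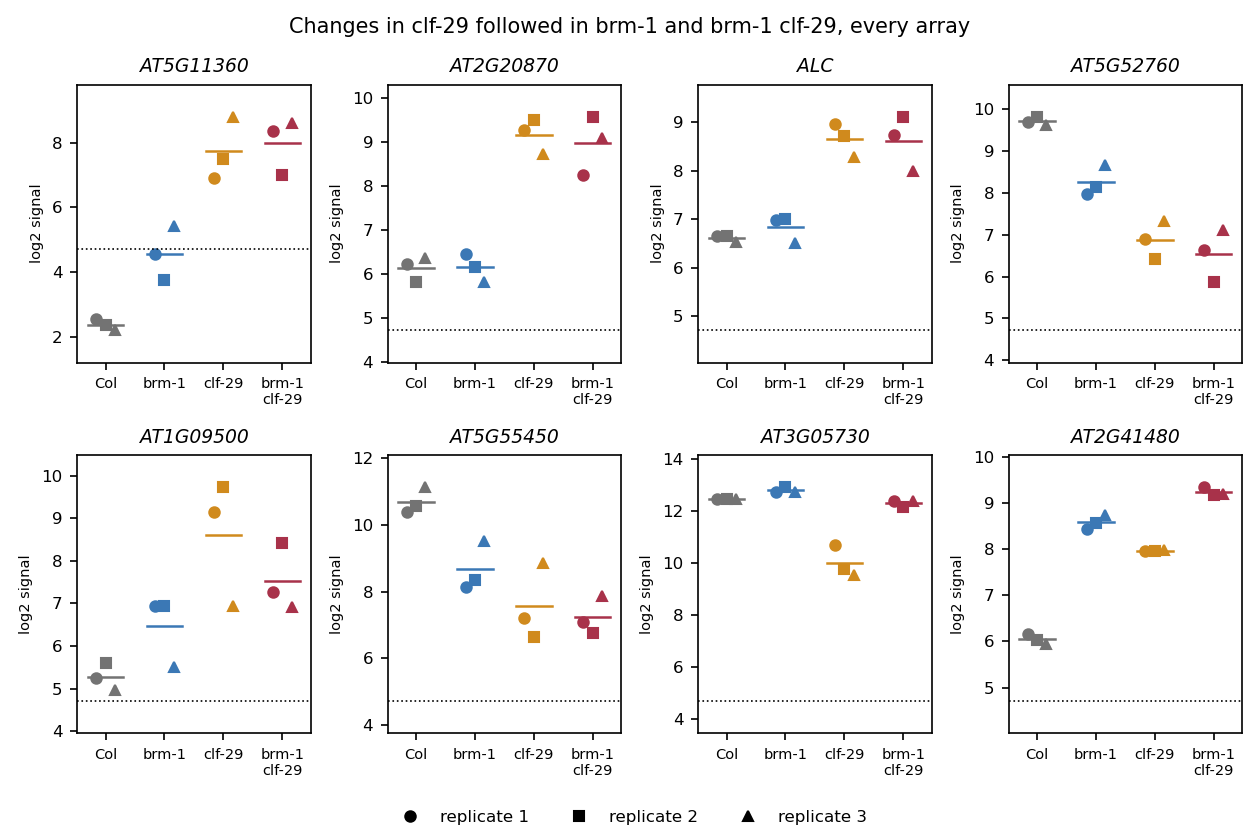
Log2 signal of 8 genes called in clf-29 against Col, in every array of the 4 genotypes, with symbols, bars and dotted line as in the plot of the genes that differ between brm-1 clf-29 and clf-29. In the first 4 panels the change was called again without BRM; in AT3G05730 the brm-1 clf-29 arrays (12.17 to 12.39) lie near those of Col (12.45 to 12.46).

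Some genes were called both in clf-29 against Col and in brm-1 clf-29 against clf-29. The 2 comparisons share the clf-29 arrays, whose errors enter them with opposite sign, so their values are given side by side as a description. AT3G25290 was at 7.67, 8.04 and 7.83 in Col, at 9.02, 8.77 and 8.44 in clf-29 and at 7.14, 7.23 and 6.84 in brm-1 clf-29, close to brm-1 (7.12, 6.90 and 7.15). Its differences were 0.90 ± 0.18 and -1.67 ± 0.18, and without BRM loss of CLF left it at 0.01 ± 0.18. AT3G17110 (0.82 ± 0.17 and -0.80 ± 0.17), AT5G64550 (1.01 ± 0.20 and -0.95 ± 0.20), AT5G05960 (0.53 ± 0.10 and -1.64 ± 0.10) and the glucosyltransferase gene UGT71B1 (0.78 ± 0.14 and -0.84 ± 0.14) went up and down in the same way, with UGT84A3. The second call of AT3G17110 and of AT5G64550 was lost with 5 of the 6 arrays left out, and that of UGT71B1 with 1. Among the genes that follow it was lost for AT5G45670 with 5, AT1G28570 with 4 and AT3G22550 with 2. Steps of the same sign were found as well: AT1G75900 was at 8.30, 8.34 and 8.15 in Col, at 9.78, 9.68 and 9.98 in clf-29 and at 10.90, 10.86 and 11.18 in brm-1 clf-29. AT1G28570 (1.21 ± 0.15 and 0.73 ± 0.15), AT3G22550 (1.19 ± 0.20 and 1.16 ± 0.20), AT5G45670 (0.80 ± 0.12 and 0.59 ± 0.12) and PRX25 also rose at both steps, and ECS1 and RING1, here the defence-related RING finger gene AT5G10380 and not the Polycomb protein, fell at both. Apart from UGT84A3, AT1G75900, AT3G22550, PRX25, ECS1 and RING1, the genes of this paragraph were named after their values were seen.

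Whether the CLF difference itself depended on BRM was tested by the interaction. In the plain fit no gene was called (754 had an unadjusted p under 0.05, 5.65% of those tested), and 4 genes (0.0299%) were called with the term for replicate 3, PRX25, AT3G05730, AT5G52810 and RING1, each with an adjusted p of 0.0366. None of the 4 passed with the replicate block (adjusted p = 0.0826 to 0.088) or with centring and the term (0.0586 to 0.0587). In replicates 1 and 2 alone AT5G52810 passed (1.95, adjusted p = 0.00477) and the others did not (0.0555 to 0.0661). For AT3G05730 the difference between the CLF differences was 1.98 (95% interval 1.37 to 2.60 with the term). For RING1 it was 1.24 (0.85 to 1.63): it fell from 10.20, 10.47 and 10.49 in Col to 8.89, 8.90 and 9.05 in clf-29, and lay at 8.45, 8.21 and 8.07 in brm-1 and at 7.94, 7.90 and 8.29 in brm-1 clf-29. AT5G52810 fell by 1.34 ± 0.21 in clf-29 (adjusted p = 0.0112) and differed by 0.29 ± 0.21 without BRM, and PRX25 rose by 1.91 ± 0.13 (adjusted p = 3.07e-05) and differed by 0.66 ± 0.13 without BRM (adjusted p = 0.0626). Over the 126 genes called in clf-29, the 95% interval of the interaction reached 0.57 to either side in the median, beside a median CLF difference of 1.01 for the higher genes. A missing interaction call thus leaves room for sizeable differences, and the classes above are not shown to differ gene by gene.

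The differences made by loss of BRM in clf-29 were set beside those in plants with CLF, brm-1 against Col, again from other arrays and with a shared estimate of the spread. In that comparison 156 genes were called lower (1.17%) and 93 higher (0.696%). Of the 131 genes lower in brm-1 clf-29, 68 were called lower there, none was called higher and 127 had the same sign, with a median of -0.81 beside -1.09. Of the 65 higher genes 27 were called higher, none lower, and 61 had the same sign (0.62 beside 0.82). AT1G62290 (1.94 ± 0.13 with CLF and 1.76 ± 0.13 without), UGT84A3 (-1.77 ± 0.19 and -2.15 ± 0.19), LPR2 (-0.82 ± 0.09 and -0.81 ± 0.09) and GH9B13 (-1.48 ± 0.17 and -1.44 ± 0.17) had close values in both. Others were called only where CLF was absent, such as DFR (-0.83 ± 0.67 with CLF, where 1 brm-1 array was at background), CHIL (-0.72 ± 0.30), GH9B8 (-0.11 ± 0.16), SP1L2 (-0.28 ± 0.25, beside -1.26 ± 0.25) and AT3G05730 (0.33 ± 0.22). The interaction, which is the test of that difference, had an adjusted p of 0.855 for DFR, whose brm-1 clf-29 arrays were at background, and of 0.708 for GH9B8 (95% interval -1.38 to -0.41).

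**Figure D5:**
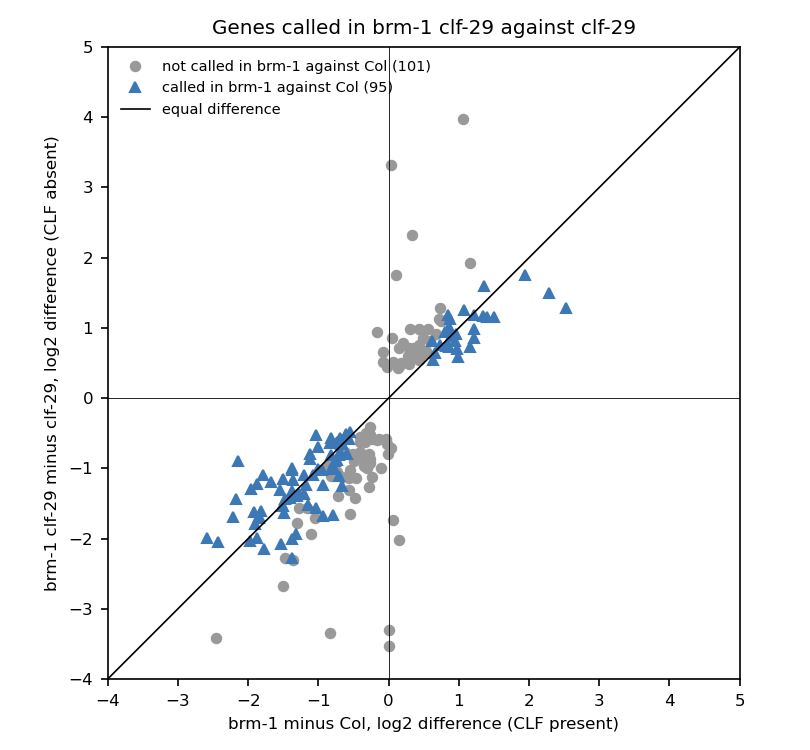
Log2 difference of brm-1 minus Col (horizontal axis) against brm-1 clf-29 minus clf-29 (vertical axis) for the 196 genes called in the second. Triangles mark the 95 genes called in brm-1 against Col, and grey points all the others, called only where CLF was absent. Nearly all points lie in the quadrants of equal sign, and some grey points lie near the vertical axis.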

How the data were processed

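Whole seedlings of 4 genotypes were measured on 12 ATH1 arrays. The deposited values were log2 signals, which the authors made with MAS5 and the affy package per the labels (versions not given in the sources used here). Each array's antilog trimmed mean was 499.7 to 499.8, so arrays had been scaled, and array medians were 7.54 to 7.66. Precision is limited by having 3 arrays per genotype. The annotation gave 1 gene for 13513 of 22810 probe sets, several for 503 and none for 8794. Names were updated through RefSeq (TAIR10.1; 13436 matched), the brightest probe set per gene was kept, and 13356 genes remained.

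Genes were tested with limma 3.58.1 (R 4.3.3): 1 mean per genotype over 12 arrays, eBayes with trend, and two-sided p adjusted by Benjamini-Hochberg across 13356 genes. The second fit added a term for replicate 3. Deviations of the replicate 3 arrays correlated at 0.441 to 0.708 between genotypes. Those of same-numbered arrays of replicates 1 and 2 correlated at 0.196 to 0.438, within the range of different numbers (-0.6 to 0.488). Chiefly replicate 3 thus stood apart, and numbers 1 and 2 were not shown to pair the samples. The plain fit was run on simulated data with independent noise and no shift of replicate 3, so the fit with the term was not tested there.

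Where all arrays of the dimmer genotype lay under the background, "at least" gives the brighter mean over it. Genes named by rule were the 15 largest rises and falls called in both fits, without overlapping arrays and above the median signal of all genes (180 qualified), 8 clf-29 changes per class (18 and 64 qualified), interaction calls, called list members and all measured members of the flowering, floral, SWI/SNF, flavonoid, sinapate and qPCR lists. Members, lists and rules were chosen with earlier results of these data known. Polycomb, seed and heat shock lists had no measured member.

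Alternatives were other scalings, filters, offsets, variance models, array weights, probe set choices, the replicate block, replicates 1 and 2, and left-out arrays.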

Additional observations from a re-analysis of the deposited data

Results flagged for a closer look

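In the fit with the term for replicate 3, 4 genes had a difference made by loss of CLF that itself differed between seedlings with and without BRM. The interaction was -1.25 for AT2G41480 (PRX25), 1.98 for AT3G05730, 1.63 for AT5G52810 and 1.24 for RING1, each with an adjusted p of 0.0366 from limma. None passed in the plain fit, where their adjusted p were 0.151, 0.157, 0.363 and 0.157. With the replicate block they were 0.0826, 0.0826, 0.0826 and 0.088, and with centring and the term 0.0586 to 0.0587. In replicates 1 and 2 alone they were 0.0661, 0.0645, 0.00477 and 0.0555, so that AT5G52810 passed there. Groups of 3 arrays were too small for a check of single arrays that lie far from the others.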

How the results depend on the processing

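Counts of calls depended on the model of the spread more than on the scaling. In brm-1 clf-29 against clf-29, 65 genes were higher and 131 lower. The higher genes numbered 21 with eBayes without trend, 15 with only the compared genotypes in the fit, 103 with the arrays centred on their medians, 144 over every probe set, 210 in replicates 1 and 2, 219 with the replicate block, 249 with the term for replicate 3, 415 with centring and the term, and 1328 past 1.5-fold with no test. The lower genes numbered 61, 46, 107, 279, 368, 324, 356, 291 and 1950 under these settings, in the same order. With 1 array left out they ranged from 14 to 67 and from 43 to 153 in the plain fit, and from 114 to 272 and from 201 to 395 with the term. Of 126 genes called in clf-29 against Col, 19 were called again without BRM. These numbers were 42 and 5 without trend, 355 and 47 with array weights, 361 and 55 over every probe set, 465 and 115 with the block, 586 and 132 with the term, 577 and 134 with centring and the term, 735 and 204 in replicates 1 and 2, and 3165 and 1009 past 1.5-fold. With 1 array left out they ranged from 44 to 173 and from 7 to 23, and with the term from 251 to 652 and from 60 to 135. The interaction was called at 0 genes, at 1 with the genes under the median left out, at 4 with the term, at 0 with the block or with centring and the term, at 28 in replicates 1 and 2, at 0 to 1 with an array left out, and at 0 to 32 with an array left out under the term. What lies behind these shifts was not tested, except that fewer arrays or more probe sets enter by construction. Leaving out arrays under the term, centring with the term, the readings of replicate 3 and, for brm-1 clf-29 against clf-29, leaving out the Col and brm-1 arrays were chosen after seeing the data.

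Of 67 named genes called in brm-1 clf-29 against clf-29, 33 kept the call with each of the 6 arrays of these genotypes left out. Under every setting run on single genes that held them, 27 kept it. The fit without genes under the median held 57 of the 67, and genes it did not hold could not lose their call there. No called gene changed sign under these settings. The block and the term added calls and removed none of the 196. Signals under the background limit what can be read: of the means of each gene in each genotype, 26.8% lay under it. Replicates of genes under the median signal differed by a median SD of 0.88, against 0.19 above it.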
